A study of Mus musculus with 24 samples.

Results

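Islets of 52-week-old mice were compared with islets of 8-week-old mice in the animals that had received no operation. Of the 24 bulk RNA sequencing libraries of the study, 8 belong here: 4 libraries titled as old controls and 4 titled as young controls, chosen by their titles alone, with every gene row of each table used. The mice were male C57BL/6J mice on standard chow with no transgene or deletion. At 8 weeks (young) and at 52 weeks (old) the control animals were left unoperated, so no sham surgery was part of either group. The other 16 libraries came from islets taken 2, 7 or 14 days after partial pancreatectomy (PPTx) at the same ages, and they serve here as libraries that the comparison of controls did not use. Each sample held hand-picked whole islets of a single mouse or of a pair of pooled mice, so all islet cell types, vessels and adhering tissue contributed RNA. The labels do not state that the libraries of a group came from separate mice, and the p-values measure the spread between these libraries, which may in part be technical.

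An islet is a cluster of endocrine cells, mostly insulin-secreting β-cells together with glucagon-secreting α-cells, somatostatin-secreting δ-cells and pancreatic polypeptide cells. It is supplied by fenestrated capillaries, holds resident macrophages and is embedded in acinar tissue that makes digestive enzymes. In young mice β-cells still divide at a low rate, and this rate falls with age as cell cycle inhibitors such as the product of Cdkn2a accumulate and as IGF2 mRNA-binding proteins and other growth genes of early life are turned down.

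The libraries held 5874340 to 9385697 counts in the young group and 6883468 to 9256957 in the old group. Annotated genes held a part of the mapped reads that ran from 39.2% to 55.3% in young and from 23.2% to 53.4% in old libraries, the lowest value being that of old replicate 4. As a check of the tissue, the deposited RPKM (reads scaled to transcript length and to the number of mapped reads) of Ins2 averaged 187000 ± 8930 (SD, n = 4) in young and 264000 ± 21700 (SD, n = 4) in old islets, and that of Gcg 20300 ± 6330 and 18000 ± 5260 (SD, n = 4 each). Islet hormone transcripts were high in both groups. The first 2 principal components of log2 CPM in the 8 libraries took 37.3% and 26.1% of the variance, and the ages separated along the latter. Old replicates 3 and 4 carry another run label (W0102) than the other 6 libraries (W0054).

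Exocrine transcripts differed most between the ages, and they are described apart from the other genes. The summed counts of the acinar list, which holds amylases, lipases, proteases and other digestive enzymes, took 14.2%, 15.8%, 10.8% and 29.0% of all counts in young replicates 1 to 4. In old replicates 1 to 4 they took 4.65%, 0.668%, 0.962% and 1.70%. The groups did not overlap, and the highest share was that of young replicate 4. In bulk samples fewer cells of a type and less of its RNA per cell cannot be told apart, and the amount of acinar tissue carried along with the islets was not recorded in the sources used here. Counts of Ins1 and Ins2 together made up 8.95% ± 0.42 of young and 12.9% ± 1.08 of old libraries (SD, n = 4 each). With the acinar rows left out of the total, insulin took 10.5%, 11.2%, 9.94% and 11.9% of the counts in young and 13.1%, 12.8%, 14.5% and 12.1% in old replicates 1 to 4.

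**Figure D1:**
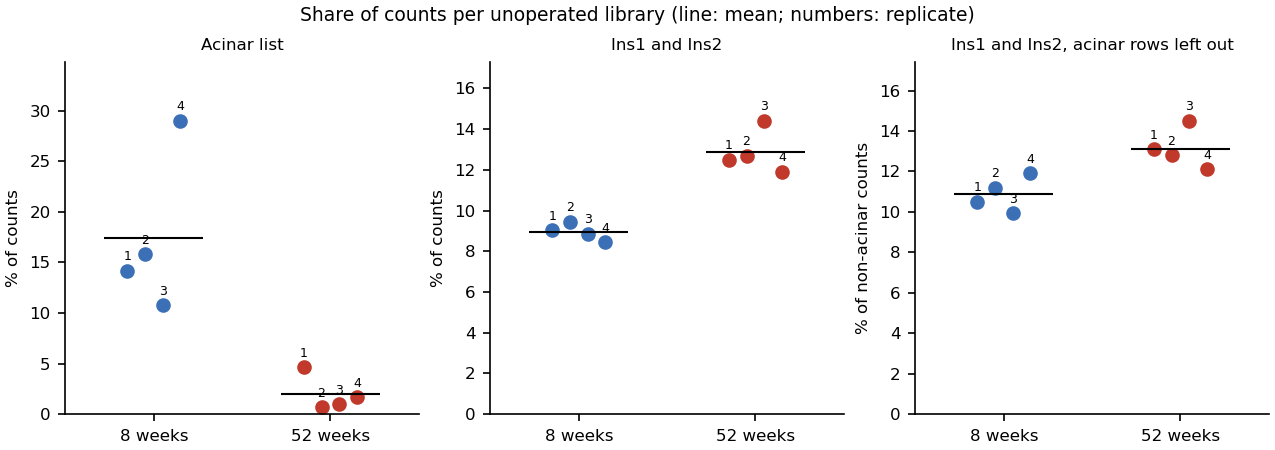
Each point is the share of counts (%, y axis) taken by the acinar list, by Ins1 and Ins2, and by Ins1 and Ins2 with acinar rows left out of the total, in 1 unoperated library (x axis, age; numbers, replicate; line, mean). The acinar share reached 29.0% in young replicate 4 and 4.65% at most in the old libraries, and the insulin share was higher in each old library than in each young one on either total.

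Of the 46 acinar genes listed, 35 were tested and 22 were lower in old islets (62.9%, against 0.883% of all rows) at an adjusted p below 0.05 (edgeR's quasi-likelihood test with Benjamini-Hochberg adjustment, used for all adjusted p below). The list's median log2 fold change, old over young, was -2.83, beside 0.04 over all 13367 rows tested. Amy2a5, pancreatic amylase on chromosome 3 (113052094 to 113061755, mm9), had 31000, 36200, 29800 and 96600 CPM (counts scaled to library size with TMM factors) in young replicates 1 to 4. In old replicates it had 10500, 1380, 1660 and 2720 CPM, and its log2 fold change was -3.58 (SE 0.716, adjusted p = 0.0404). Klk1 (tissue kallikrein; log2 fold change -3.63, adjusted p = 0.0171), Pnlip (pancreatic lipase; -3.38, 0.0379), Try4 (a trypsin; -3.26, 0.0203), Gp2 (the zymogen granule glycoprotein; -3.25, 0.023) and Serpini2 (a serpin; -3.25, 0.0125) fell as well. The count of acinar calls rests on single libraries: it was 1 without old replicate 3 or young replicate 1, 2 without young replicate 2, 4 without young replicate 3 or 4, and 29 without old replicate 1, while the list's median stayed between -3.34 and -2.27 in these fits. It was 1 with the run label as covariate, 10 within run label W0054, and 0 with a code that libraries share in their file names as a random block. Klk1 was called in 6 of the 8 leave-one-library-out fits, Try4 in 5, Gp2 in 4, Pnlip in 3, Amy2a5 in 2 and Serpini2 in 8.

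The Reg genes encode small secreted lectins made by acinar and stressed islet cells. Of the 7 listed, 4 were tested and 3 fell (75.0%, against 0.883% of all rows), while 0 passed with the file-name code as a random block. Reg1 stood at 327, 420, 179 and 701 CPM in young and at 58.6, 16.6, 22.7 and 29.0 CPM in old replicates 1 to 4, and its log2 fold change was -3.68 (SE 0.475, adjusted p = 0.0119), and it was called in all 8 fits that left out a library. Reg2 reached 56.6 CPM in young replicate 4 and 4.22 to 7.41 CPM in the other young libraries, against 0.587 to 1.29 CPM in old ones (log2 fold change -4.30, adjusted p = 0.045). Reg3d fell too (-3.51, adjusted p = 0.0291). Reg2 was called in 2 and Reg3d in 3 of those fits. All 3 were highest in young replicate 4, the library with the highest acinar share, and among old libraries Reg1 was highest in replicate 1, Reg2 in replicate 4 and Reg3d in replicate 3. The median of the Reg list was -3.70, and with the acinar score as covariate it was -1.25 and 0 members passed. That score did not overlap between the ages, so the part of acinar content in these falls cannot be told apart from age.

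Across all rows, 234 of 13367 (1.75%) differed between the ages, 116 higher (0.868%) and 118 lower (0.883%) in old islets, and 94 of them by 2-fold or more. With the acinar and Reg rows removed before scaling, 92 rows were higher and 79 lower. A limma fit on log2(RPKM + 1), which carries no TMM scaling, gave another split, 1090 higher and 78 lower, and moved the median of all rows from 0.04 to 0.24. Among the 6 libraries of run label W0054 (4 young, 2 old) 343 rows passed, 169 higher and 174 lower; the other run label holds old controls only. Libraries that share a code in their file names, a code whose meaning is not given, are all of 1 age; with that code as a random block limma-voom called 21 rows, and 200 without it, and no member of the gene lists described here passed. How many rows passed depended strongly on single libraries. The count was 138 without old replicate 2, 48 without old replicate 3, and 24, 58, 31 and 71 without young replicates 1 to 4, while 198 and 297 rows passed without old replicates 1 and 4. The acinar score of the libraries did not overlap between the ages and cannot be told apart from age; with it in the model no row passed (587 rows at an unadjusted p below 0.05). The number of the 8 leave-one-library-out fits in which a gene was called is given for the called genes named below.

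The largest rises were in genes that were near the limit of detection at 8 weeks. Slc35f4, a member of a nucleotide sugar transporter family, rose from 0.507, 0.145, 0.566 and 1.18 CPM in young replicates 1 to 4 to 7.16, 7.71, 4.43 and 3.53 CPM in old ones, and its log2 fold change was 3.21 (SE 0.492, adjusted p = 0.0166, called in 6 of 8 fits). Olfm2, a secreted olfactomedin, rose from 0.845 to 2.18 CPM across young libraries to 5.05 to 11.8 CPM across old ones (log2 fold change 2.46, adjusted p = 0.0166). Lmo1, a LIM-domain transcriptional cofactor, had 0.338, 0.872, 0.849 and 2.36 CPM in young and 6.10, 5.55, 6.50 and 5.52 CPM in old islets (2.40, adjusted p = 0.0322). In none of these did a young library reach the lowest old one. Olfm2 was called in 4 and Lmo1 in 3 of 8 fits.

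Bmpr1b, a type I receptor for bone morphogenetic proteins on chromosome 3 (141500100 to 141832389), stood at 5.07, 4.65, 5.94 and 8.25 CPM in young and 17.5, 18, 27.5 and 28.4 CPM in old replicates 1 to 4, and its log2 fold change was 1.95 (SE 0.249, adjusted p = 0.0119, called in 7 of 8 fits). Clip4, a microtubule-binding CAP-Gly protein on chromosome 17, rose from 5.45 to 9.63 CPM to 22 to 36.7 CPM (1.95, adjusted p = 0.00787, called in 8 of 8). Astn1, an adhesion protein of migrating neurons, had 2.21 to 4.50 CPM in young and 12.4, 25.4, 12.9 and 11.6 CPM in old libraries (2.10, adjusted p = 0.0165). Evc, a protein of the primary cilium that acts in hedgehog signalling, rose by 2.10 on the log2 scale (adjusted p = 0.0166), Fut1, a fucosyltransferase, by 2.18 (adjusted p = 0.0185) and Kazald1, a secreted Kazal-domain protein, by 2.22 (adjusted p = 0.0378). The remaining members of the 12 largest rises were Sidt1 (2.26), the noncoding RNA A930017M01Rik (2.13) and the kinase gene Stk33 (2.09). Astn1 was called in 6 of 8 fits, Evc, Fut1 and A930017M01Rik in 4, Sidt1 in 3, Stk33 in 2 and Kazald1 in 1.

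Other genes were named for passing in both age fits. Tmem59l, a membrane protein of neurons, had 39.5, 44.0, 28.9 and 34.2 CPM in young and 140, 147, 98.0 and 88.9 CPM in old replicates 1 to 4, and its log2 fold change was 1.69 (SE 0.179, adjusted p = 0.00645). The small nucleolar RNA host gene Snhg11 rose from 20.5 to 28.2 CPM to 63.2 to 110 CPM (1.66, adjusted p = 0.00645). Frrs1l, which assists assembly of AMPA-type glutamate receptors, stood between 8.98 and 12.2 CPM in young and between 26.6 and 29.3 CPM in old libraries (1.33, SE 0.123, adjusted p = 0.00314). Jam2, a junctional adhesion molecule, rose from 46.5 to 58.5 CPM to 85.7 to 119 CPM (0.97, adjusted p = 0.00736). These 4 genes were called in 8 of 8 fits. A higher level with age in the operated libraries was a condition of their choice, so it adds no further result.

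**Figure D2:**
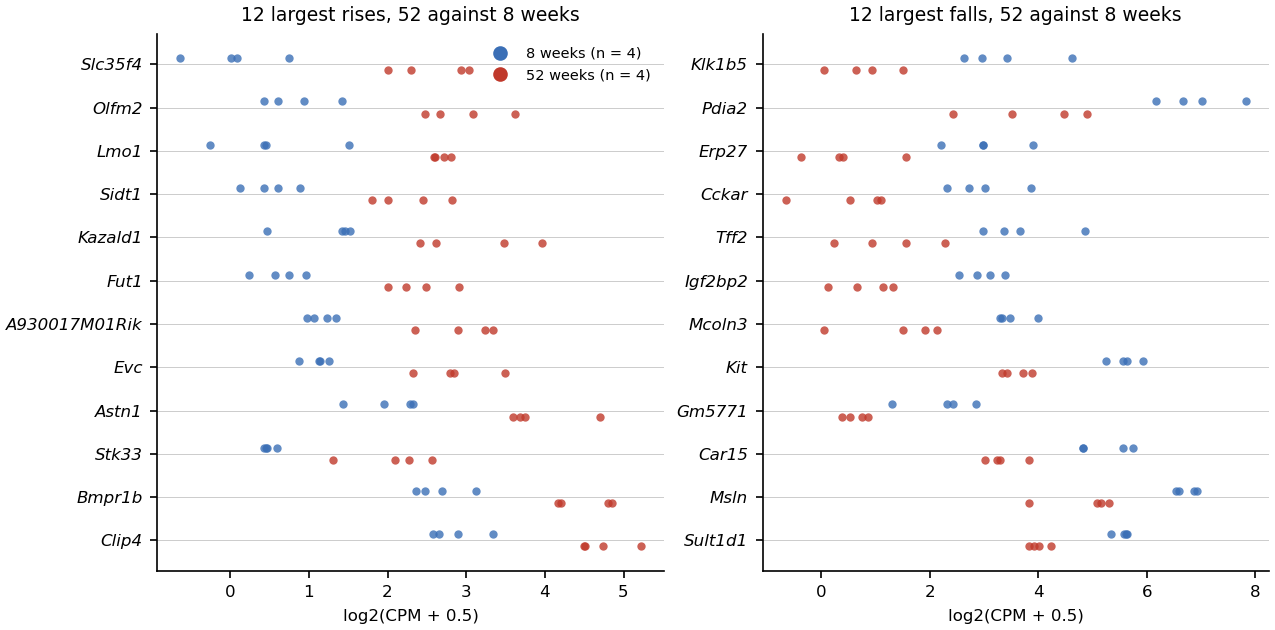
Points give log2(CPM + 0.5) (x axis) of the 12 largest rises and the 12 largest falls outside the acinar and Reg lists (y axis, ordered by fold) in the 4 young (blue) and 4 old (red) unoperated libraries. The groups do not overlap in any of these genes, as the naming rule required; Slc35f4 (log2 fold change 3.21) and Klk1b5 (-3.11) head the panels.

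The 12 largest falls included genes tied to exocrine tissue that the acinar list did not hold. Klk1b5, a kallikrein, had 10.3, 7.26, 5.66 and 24.2 CPM in young and 2.35, 0.541, 1.41 and 1.06 CPM in old replicates 1 to 4, and its log2 fold change was -3.11 (SE 0.538, adjusted p = 0.0266). Pdia2, the pancreatic protein disulfide isomerase, had a log2 fold change of -2.97 (adjusted p = 0.0244), Erp27, an endoplasmic reticulum protein, -2.93 (adjusted p = 0.0378), Cckar, the acinar cholecystokinin receptor, -2.88 (adjusted p = 0.0368), and Tff2, a trefoil peptide of the ductal list, -2.68 (adjusted p = 0.045). Gm5771, which lies near the trypsin gene Try4 on chromosome 6, had -2.06 (adjusted p = 0.0404). All 6 were highest in young replicate 4 and, except Gm5771, highest among old libraries in old replicate 1, the libraries with the highest acinar share of their age. With the acinar score as covariate 0 of the 80 called genes named in this report passed, and Tff2 stood at 0.28. That score did not overlap between the ages, so the part of acinar content in these falls cannot be told apart from age. Klk1b5, Pdia2 and Cckar were called in 3 of 8 fits, and Erp27, Tff2 and Gm5771 in 2.

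Kit and Sult1d1 had the smallest SE of the 12 falls. Kit, the receptor tyrosine kinase for stem cell factor on chromosome 5 (75970941 to 76052747), stood at 60.3, 49.1, 46.8 and 37.3 CPM in young and 9.51, 14.2, 10.2 and 12.6 CPM in old replicates 1 to 4. Its log2 fold change was -2.06 (SE 0.185, adjusted p = 0.00314), it was called in 8 of 8 fits, and its lowest young value was that of replicate 4. Sult1d1, a cytosolic sulfotransferase, had 49.2, 39.8, 47.5 and 48.7 CPM in young and 13.7, 15.6, 14.6 and 18.4 CPM in old islets (-1.56, SE 0.134, adjusted p = 0.00314, 8 of 8 fits). Car15, a membrane-anchored carbonic anhydrase, fell from 53, 28, 28 and 46.7 CPM to 13.7, 8.93, 7.63 and 9.28 CPM (-1.97, adjusted p = 0.0119, 8 of 8 fits). Mcoln3, an endolysosomal cation channel, fell by 2.14 on the log2 scale (adjusted p = 0.0434), and Msln, the mesothelial surface protein mesothelin, by 1.80 (adjusted p = 0.0154). Mcoln3 was called in 3 and Msln in 5 of 8 fits. Car15 and Mcoln3 were highest, among old libraries, in replicate 1.

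The mRNA-binding protein gene Igf2bp2 stood apart among growth genes. Igf2bp2 lies on chromosome 16 (22059082 to 22163372, minus strand, mm9) and its product binds the IGF2 mRNA and promotes growth in early life. It had 9.97, 8.14, 6.79 and 5.30 CPM in young and 0.587, 1.08, 1.70 and 2.00 CPM in old replicates 1 to 4, and its log2 fold change was -2.45 (SE 0.391, adjusted p = 0.0205, called in 4 of 8 fits). The list of imprinted growth genes and their partners had 18 members, of which 8 were tested and 2 called, both lower (25.0%, against 0.883% of all rows), with a median of -0.45. The count was 0 without old replicate 3 or young replicate 1, 2 or 3, 1 without old replicate 2 or young replicate 4, 1 with the run label as covariate and 0 with the file-name code as a random block. The other call was Slc38a4, an imprinted amino acid transporter, with 390, 432, 371 and 470 CPM in young and 302, 295, 271 and 204 CPM in old islets (-0.63, adjusted p = 0.0352, called in 2 of 8 fits). Plagl1 (-0.53, adjusted p = 0.171), Grb10 (-0.51, adjusted p = 0.0761) and Ndn (-0.39, adjusted p = 0.0928) did not pass, although their groups did not overlap either. Summed over the list, young libraries held 582 to 678 CPM and old libraries 374 to 477 CPM. No overlap between the groups was also seen in 9.73% of all rows tested.

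Among leukocyte markers, MHC class II and macrophage genes rose at 52 weeks. Of the 30 leukocyte markers listed, 23 were tested and 5 rose (21.7%, against 0.868% of all rows). A log2 fold change above 0 was found for 22 of the 23, against 7535 of all 13367 rows, and the median was 0.82. H2-Aa, the α-chain of an MHC class II molecule, had 37.3, 42.0, 34.4 and 41.2 CPM in young and 72.8, 97.9, 59.2 and 81.9 CPM in old replicates 1 to 4, and its log2 fold change was 1.01 (SE 0.151, adjusted p = 0.0155, called in 6 of 8 fits). The class II β-chain genes H2-Ab1 and H2-Eb1 rose by 0.82 each (adjusted p = 0.0359 and 0.0375, called in 2 and 3 of 8 fits). Lyz2, the lysozyme of macrophages, had 10.1, 10.8, 11 and 20.8 CPM in young and 33.6, 41.3, 24.9 and 43 CPM in old libraries (1.44, adjusted p = 0.0291, called in 4 of 8 fits). C1qb, a complement subunit made by macrophages, rose by 0.76 (adjusted p = 0.029, called in 1 of 8 fits).

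The defining pan-leukocyte marker Ptprc stood at 5.23 to 7.95 CPM in young and 7.16 to 16.6 CPM in old libraries (0.79, adjusted p = 0.183), and Cd68 of macrophages at 1.18 to 2.55 and 2.64 to 3.79 CPM (0.76, adjusted p = 0.307). The summed level of the list was 243 to 305 CPM in young and 391 to 582 CPM in old libraries. More leukocytes in or around old islets and more of these transcripts per cell cannot be told apart here. The number of calls was 0 without young replicate 1 or 3, 1 without young replicate 2 or old replicate 2, 2 without young replicate 4 and 6 without old replicate 1, and 0 with the file-name code as a random block, while the median of the list ran from 0.69 to 0.92 over all fits. B2m, the light chain of MHC class I, also rose, from 31.4, 27.6, 32.8 and 40.9 CPM to 47.2, 59.8, 55.6 and 70.5 CPM (0.82, SE 0.161, adjusted p = 0.0382, called in 2 of 8 fits). It was the call among 27 tested genes of the interferon and antigen presentation list (3.70%, against 0.868% of all rows), whose median was 0.30. That call was lost with the run label as covariate, within run label W0054 and with the file-name code as a random block. In that list Ifit1 (0.87, adjusted p = 0.102), Ifit2 (0.40) and Ifit3 (0.51) did not pass.

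Class II genes share a compact promoter in which a Y box, an inverted CCAAT element, lies near the transcription start. The stretches around this element are shown for the called class II genes that the RefSeq promoter table (GRCm38.p6) holds, since these genes rose together; the letters searched, CTGATTGG on either strand in the 250 bases before the start, are in capitals. H2-Aa (chr17:34287847-34287924, minus strand) and H2-Eb1 (chr17:34305755-34305832, plus strand) each held it, with its 5′ base 51 and 62 bases before the start.
H2-Aa: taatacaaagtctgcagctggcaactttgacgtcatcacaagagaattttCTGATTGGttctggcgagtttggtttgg
H2-Eb1: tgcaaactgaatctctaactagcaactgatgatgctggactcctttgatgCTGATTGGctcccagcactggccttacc
The same letters, which contain the complement of CCAAT, occurred in 4.07% of the 27025 promoters of the table and in 5.34% of the 9022 promoters matched to rows tested. Those of B2m, C1qb and Lyz2 did not hold them in that window, and H2-Ab1 has no entry there.

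Of 12 endothelial markers tested, 11 had values above 0 (median 0.37), against 7535 of all 13367 rows. In this list 1 gene passed (8.33%, against 0.868% of all rows). It was Kdr, a receptor for VEGF, with 114, 153, 133 and 139 CPM in young and 181, 194, 185 and 171 CPM in old replicates 1 to 4 (log2 fold change 0.44, adjusted p = 0.0461). Kdr was called in 0 of 8 leave-one-library-out fits. Flt1, another VEGF receptor, had 0.45 (adjusted p = 0.0513), Pecam1 0.27 (adjusted p = 0.341) and Cdh5, the VE-cadherin gene, -0.16 (adjusted p = 0.741). The list summed to 564 to 603 CPM in young and 697 to 956 CPM in old libraries.

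Markers of the other cell types that islets can carry showed few calls. Among 13 ductal genes tested, Tff2 fell (7.69%, against 0.883% of all rows), while Krt7 (-0.17), Krt8 (-0.05), Krt18 (0.14) and Krt19 (1.29) did not pass (adjusted p from 0.447 to 0.863). None of 17 fibroblast and stellate genes and none of 6 neural and Schwann genes tested was called by edgeR. At an unadjusted p below 0.05 were 5 and 0 of them, against 2134 of all 13367 rows. Col1a1 ran from 19.2 to 49.5 CPM in young and from 7.51 to 38.9 CPM in old libraries, so the groups overlapped. DESeq2 called 3, 2 and 0 genes of these lists.

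No gene that defines β-cells passed the test, although DESeq2 called 1 in each of the hormone, transcription factor and glucose sensing lists. Of 16 hormone and secretory granule genes tested, edgeR called 0, with a median log2 fold change of -0.04. An unadjusted p below 0.05 was found for 2 of them and for 2134 of all 13367 rows. Ins2 stood at 80300, 88000, 79300 and 102000 CPM in young and 110000, 106000, 110000 and 83400 CPM in old replicates 1 to 4 (0.23, adjusted p = 0.651), and Ins1 at 9160 to 14600 and 12700 to 17200 CPM (0.45, adjusted p = 0.263). After TMM scaling both groups overlapped for these genes, unlike the shares of counts given above. Iapp, the amyloid polypeptide, had 0.18 (adjusted p = 0.774) and the prohormone convertase Pcsk1 -0.31 (adjusted p = 0.301).

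Of 18 β-cell transcription factor and maturity genes tested, edgeR called 0 (median -0.01). An unadjusted p below 0.05 was reached by 3, against 2134 of all 13367 rows. Mafa, a factor of mature β-cells that activates the insulin gene, came nearest: 37.5, 56.1, 37.3 and 42.9 CPM in young and 58.3, 68.6, 78.4 and 70.4 CPM in old islets (0.67, adjusted p = 0.055), a difference that passed in 2 of the 8 fits with a library left out. Pdx1 (0.14), Nkx6-1 (0.08) and Neurod1 (-0.03) stayed at adjusted p of 0.746 to 0.945. In the glucose sensing list, 0 of 17 tested genes were called by edgeR (5 at an unadjusted p below 0.05). The glucose transporter Slc2a2 (-0.25, adjusted p = 0.287) and the channel subunit Kcnj11 (0.08, adjusted p = 0.762) overlapped between the ages. G6pc2, the islet glucose-6-phosphatase, ran from 2610 to 5540 CPM in young and from 1680 to 2680 CPM in old libraries (-0.91, adjusted p = 0.102).

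In the exocytosis list Sytl4, granuphilin, which docks insulin granules, fell from 364, 434, 358 and 413 CPM to 271, 279, 259 and 199 CPM (log2 fold change -0.64, SE 0.108, adjusted p = 0.0255, called in 3 of 8 fits). It was the call among 15 exocytosis genes tested (6.67%, against 0.883% of all rows). Snap25 (-0.06), Stx1a (-0.13) and Vamp2 (0.14) did not pass. Of 14 genes of other endocrine cells tested, edgeR and DESeq2 called 0, although 11 were below 0, with a median of -0.30. At an unadjusted p below 0.05 were 5 of the 14. Of all 13367 rows, 7535 were above 0 and 2134 were at an unadjusted p below 0.05. Gcg ran from 16700 to 30000 CPM in young and from 13800 to 25100 CPM in old libraries (-0.42, adjusted p = 0.485). Irx2 (-0.55) of α-cells did not pass either. None of 20 genes disallowed in β-cells was called by edgeR or DESeq2 (2 at an unadjusted p below 0.05), among them Ldha (0.10), Hk1 (0.06), Acot7 (-0.57) and Slc16a1 (-0.26).

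No tested member of the S phase and G2/M lists was called by edgeR in unoperated islets. Of 33 S phase and 26 G2/M genes tested, edgeR called 0, with medians of -0.16 and -0.52, and DESeq2 called 0 and 1. An unadjusted p below 0.05 was reached by 2 and 4 genes, against 2134 of all 13367 rows. Mki67, a marker of dividing cells, had 8.95, 8.57, 22.5 and 16.1 CPM in young and 7.39, 6.76, 4.8 and 7.64 CPM in old replicates 1 to 4. The groups did not overlap, yet the fold change of -1.07 on the log2 scale did not pass (adjusted p = 0.131). Top2a (-0.68), Ccnb1 (-0.12) and Ccnb2 (-1.08) overlapped, as did the replicative helicase subunits Mcm2 (-0.19), Mcm3 (-0.11), Mcm4 (-0.22) and Mcm5 (-0.23). In the operated libraries 30 of 34 S phase and 30 of 32 G2/M genes tested passed as lower in old mice, against 9.55% of all rows, and all members tested there had values below 0, with medians of -1.19 and -2.17. The difference of the age effects was called for 0 genes of either list.

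Cell cycle inhibitors and senescence genes gave 0 calls by edgeR. Cdkn2a, which encodes p16 and p19, was at or under the limit of 3 counts in each of the 8 libraries (0 to 0.141 CPM), so no fold is given. Cdkn2b (0.25), Cdkn1a (-0.27) and Cdkn2c (-0.22) did not pass. Of 9 tested members of the list of CDK inhibitors and pocket proteins, edgeR called 0 and DESeq2 1. An unadjusted p below 0.05 was found for 1 of the 9 and for 2134 of all 13367 rows. Bmi1, the Polycomb protein that represses Cdkn2a, rose from 72.0, 72.9, 83.9 and 73.2 CPM to 125, 108, 127 and 109 CPM (log2 fold change 0.64, SE 0.0844, adjusted p = 0.0119, called in 7 of 8 fits). It was the call among 13 D cyclin, kinase and Polycomb genes tested (7.69%, against 0.868% of all rows). Ccnd2, a D cyclin, ran from 850 to 1060 CPM in young and from 447 to 912 CPM in old libraries (-0.45, adjusted p = 0.303), while Ccnd1 (-0.16), Cdk4 (0.11) and Cdk6 (-0.29) overlapped. Of 24 senescence and secreted factor genes 8 were tested and edgeR called 0 (2 at an unadjusted p below 0.05, 1 by DESeq2). Il6, Il1b, Tnf and Cxcl1 did not reach the count filter and stood at 1.65 CPM or less in each library.

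Growth factor receptors gave 0 calls by edgeR and 1 by DESeq2 among 16 tested. At an unadjusted p below 0.05 were 4, against 2134 of all 13367 rows. Prlr, the prolactin receptor, had 412, 383, 421 and 540 CPM in young and 386, 349, 267 and 248 CPM in old replicates 1 to 4 (-0.49, adjusted p = 0.135). Igf1r (0.28), Igf2r (-0.08) and Ghr (-0.12) overlapped between the ages.

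Of 66 oxidative phosphorylation genes tested, 62 had values above 0 (median 0.23), against 7535 of all 13367 rows. In this list 2 subunits of complex III passed (3.03%, against 0.868% of all rows). Uqcrb rose from 40.2 to 48.3 CPM to 56.5 to 70.9 CPM (log2 fold change 0.52, adjusted p = 0.0397) and Uqcr11 from 32.5 to 40.9 CPM to 45.1 to 56.7 CPM (0.49, adjusted p = 0.0419). Each was called in 1 of 8 fits. On log2(RPKM + 1), which moves the median of all rows to 0.24, 44 members passed and the list's median was 0.49. Atf4, the transcription factor of the integrated stress response, rose from 47.5 to 58.6 CPM to 64.9 to 91.0 CPM (0.53, adjusted p = 0.0359, called in 1 of 8 fits). It was the call among 28 endoplasmic reticulum stress and folding genes tested (3.57%, against 0.868% of all rows). The chaperones Hspa5 (0.30), Hsp90b1 (-0.03), Pdia3 (0.16) and P4hb (0.02) did not pass.

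Cry1, a repressor of the circadian clock, rose from 10.3 to 13.7 CPM to 16.9 to 21.8 CPM (0.67, adjusted p = 0.0391, called in 1 of 8 fits), while its partners Clock (-0.18), Arntl (0.44), Npas2 (0.05) and Per1 (-0.09) did not pass; the hour of islet collection is not given in the sources used here. The antioxidant, immediate early and hypoxia lists held 0 calls by edgeR among 23, 17 and 12 genes tested, and 0, 1 and 1 by DESeq2. An unadjusted p below 0.05 was reached by 6, 7 and 3 genes, against 2134 of all 13367 rows. Among the tested genes of these lists Sod1 (0.03), Sod2 (0.08), Gpx1 (0.14), Sod3 (1.35), Fos (0.16), Jun (0.52), Fosl2 (0.34), Egln1 (-0.71), Bnip3 (-0.29) and Pdk1 (0.05) had adjusted p from 0.0777 to 0.938. Adm and Fosb were below the count filter.

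**Figure D3:**
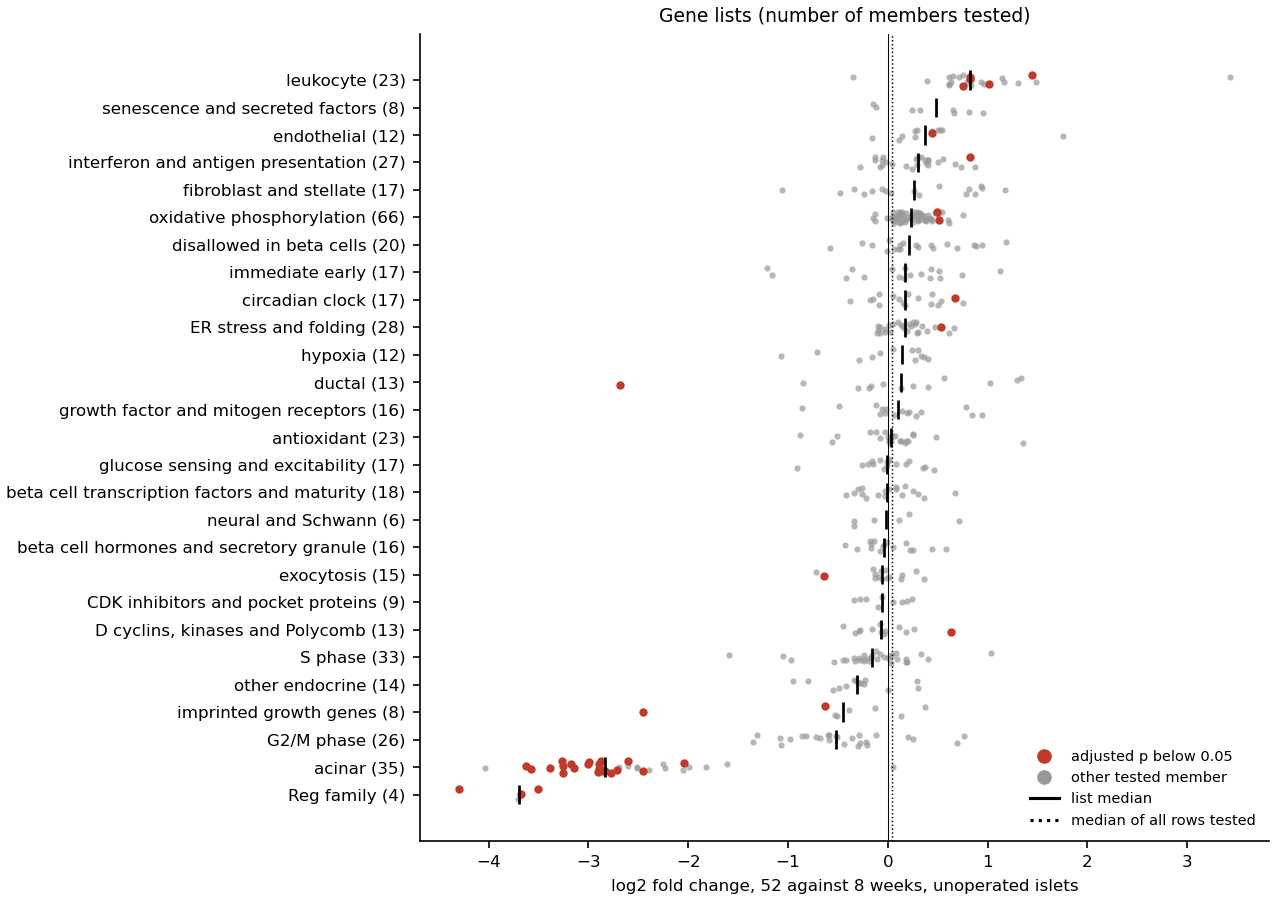
Each point is the log2 fold change (x axis, 52 over 8 weeks, unoperated islets) of a tested member of a gene list (y axis, number tested in parentheses); red points passed at an adjusted p below 0.05, and solid and dotted lines mark the list median and the median of all rows. The acinar (-2.83) and Reg (-3.70) medians lie far to the left, the leukocyte median at 0.82, the median of other endocrine genes at -0.30, and those of the β-cell hormone and transcription factor lists at -0.04 and -0.01.

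The 16 operated libraries, none of which entered the comparison of controls, were fitted for age with the day after PPTx as a factor. There 2972 of 13618 rows (21.8%) differed between the ages, 1672 higher (12.3%) and 1300 lower (9.55%) in old islets. Most operated libraries share a file-name code with another library of the same age and day. Old day 2 replicates 3 and 4 carry run label W0102, which no young library carries. Neither label was modelled in this fit or in the difference test below, so the p-values of both treat the libraries as independent. Of the 116 rows higher in old unoperated islets, 114 were also higher in old operated islets and 84 passed there (72.4%, against 12.3% of all rows), with median log2 fold changes of 0.79 and 0.71. Of the 118 rows lower in old unoperated islets, 78 were lower in old operated islets and 40 passed (33.9%, against 9.55%). The 25 acinar and Reg rows among them had a median of -2.99 in unoperated and 0.56 in operated islets, 3 of them were lower and 0 passed as lower there. For the other 93 rows the medians were -0.71 and -0.24, and 40 passed. The acinar share of counts ran from 0.382% to 5.74% in young and from 0.119% to 11.9% in old operated libraries, so it overlapped between the ages there.

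Of the named rises, each of the 12 largest was called in the operated libraries as well. Bmpr1b had a log2 fold change of 2.51 there (SE 0.158, adjusted p = 2.48e-07), H2-Aa 1.15 (adjusted p = 5.72e-06), B2m 1.22 (adjusted p = 1.26e-05) and Bmi1 0.79 (adjusted p = 6.31e-06). Tmem59l, which was chosen for passing in both fits, had 1.81 (adjusted p = 3.18e-06). Among the falls, Igf2bp2 was lower by a similar amount (-3.17, SE 0.256, adjusted p = 3.18e-06). Car15 (-1.22), Mcoln3 (-1.49) and Msln (-1.0) were lower too. The exocrine genes Klk1b5 (0.39), Erp27 (0.65) and Cckar (0.57) did not pass there. Of the leukocyte markers 17 of 23 tested passed, all higher, and of the interferon and antigen presentation genes 21 of 28. Among all rows 12.3% passed as higher there.

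**Figure D4:**
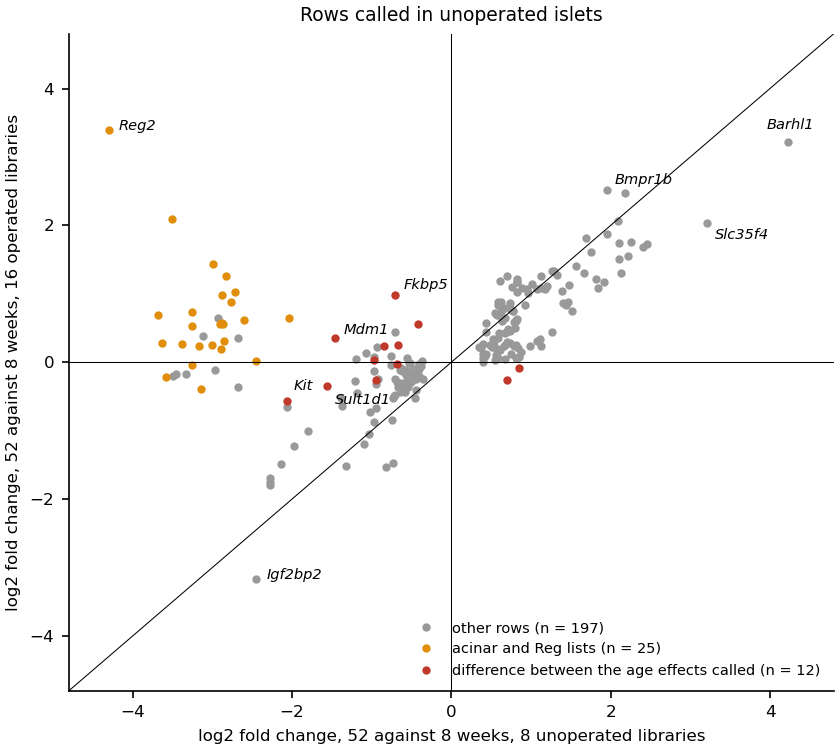
Each point is a row called in unoperated islets, with its log2 fold change, 52 over 8 weeks, in the 8 unoperated libraries (x axis) and in the 16 operated libraries (y axis); the diagonal marks equal values. Most rows higher with age (114 of 116) lie above 0 on both axes, the acinar and Reg rows (orange) lie left and mostly above 0, and red points are the 12 rows whose age effects differed between the settings.

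A direct test of the difference between the age effect in unoperated islets and the mean age effect on days 2, 7 and 14 called 34 of 15794 rows (0.215%), and 12 of the 234 rows were among them. These 12 genes were chosen for description after their values were seen. Mdm1, a microtubule-binding protein of the centrosome, had 252, 255, 232 and 267 CPM in young and 97.2, 124, 66.9 and 77.6 CPM in old unoperated replicates 1 to 4 (log2 fold change -1.46, SE 0.162, adjusted p = 0.00674, 8 of 8 fits). In operated islets its age difference was 0.35 (adjusted p = 0.0127), and the effects differed by -1.85 (adjusted p = 1.37e-05). Scaled over all libraries, young controls averaged 267 CPM of Mdm1 and the other 7 groups 74.4 to 144 CPM.

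Kit showed the same layout, with 51.4 CPM in young controls and 8.72 to 21.6 CPM in the other groups, and its age effects of -2.06 and -0.56 differed by -1.40 (adjusted p = 0.0236). Fkbp5, a glucocorticoid-induced co-chaperone, fell with age in unoperated islets (-0.70, adjusted p = 0.0459) and rose in operated ones (0.98, adjusted p = 3.19e-05), a difference of -1.65 (adjusted p = 1.37e-05). Rab31, a vesicle GTPase, did likewise (-0.41 and 0.56, difference -0.98, adjusted p = 1.9e-05). Enpp2, the secreted lysophospholipase autotaxin, had 330, 323, 346 and 318 CPM in young and 210, 177, 161 and 181 CPM in old controls (-0.85, adjusted p = 0.00674, 8 of 8 fits) but 0.25 in operated islets (difference -1.09, adjusted p = 0.0121). Sult1d1 (difference -1.20), Usp51 (-1.11), Nudt4 (-0.90), Tmtc3 (-0.73) and Nek7 (-0.66) fell more in unoperated islets, and D4Wsu53e (0.98) and Plch1 (0.91) rose more. The acinar share was 10.8% to 29.0% in young controls and at most 11.9% in the other libraries, and its part in these differences was not tested. Fkbp5 was called in unoperated islets in 2 of 8 leave-one-library-out fits, Rab31 in 1, D4Wsu53e in 2, Plch1 in 3, Nek7 in 5, Nudt4 and Usp51 in 6, and Tmtc3 in 8.

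**Figure D5:**
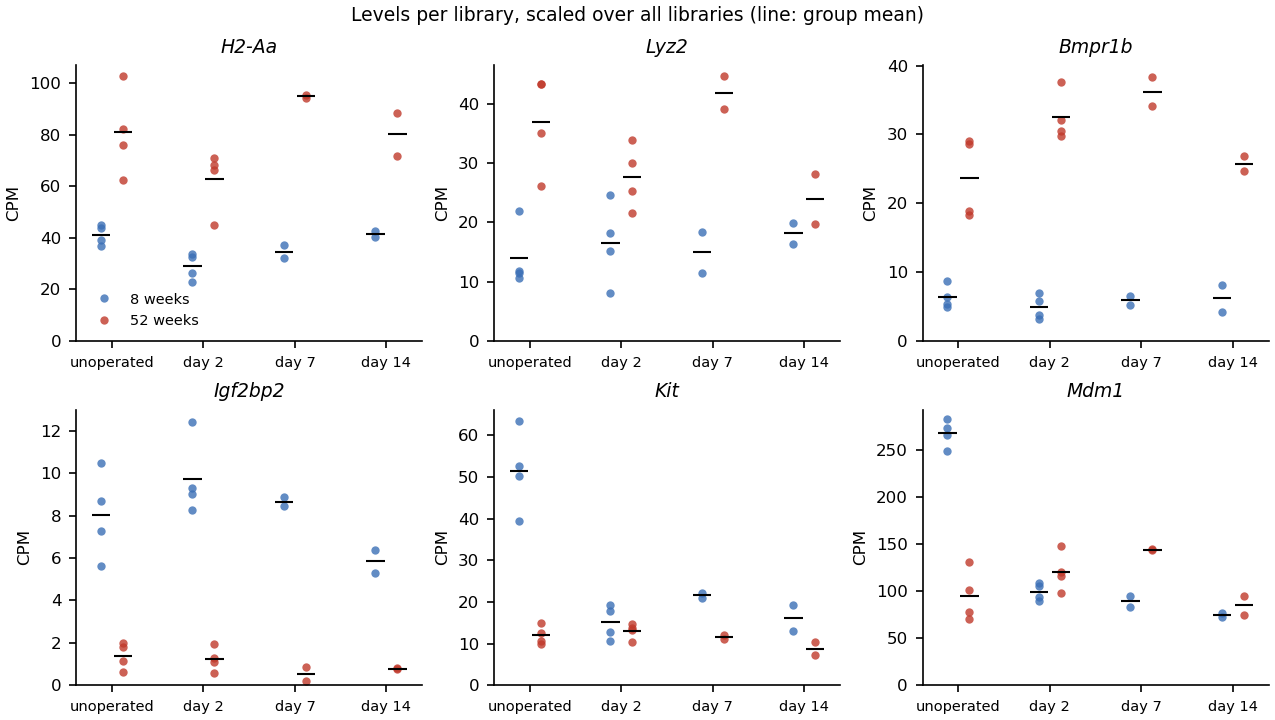
CPM per library (y axis, scaled over all 24 libraries; line, group mean) of 6 genes in unoperated islets and 2, 7 and 14 days after PPTx (x axis) at 8 weeks (blue) and 52 weeks (red). H2-Aa and Bmpr1b are higher and Igf2bp2 lower at 52 weeks in each setting, whereas Kit and Mdm1 are high in young unoperated islets (means 51.4 and 267 CPM) and lower in the other 7 groups.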

How the data were processed

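Islet RNA (SMARTer Ultra Low Input v3 libraries, single reads) was sequenced by the authors. Per the labels, reads were handled with bcl2fastq, CASAVA 1.8.2, Trimmomatic 0.36 and TopHat2 2.1.1 on build mm9; per the file headers, rpkmforgenes counted unique reads over RefSeq genes, whereas the study's methods name other tools. Whether strand was used is not given in the sources used here, so antisense and overlapping genes cannot be told apart, and near-identical copies are uncertain. The deposited tables give RPKM, normalized by the authors, and raw read counts for 22197 rows per library, of which 1651 joined or repeated gene names and were tested but not named.

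Counts were tested with edgeR 4.0.16 (quasi-likelihood test, TMM scaling, filterByExpr, Benjamini-Hochberg adjustment, threshold 0.05) in R 4.3.3 over the 8 control libraries; RPKM served for levels and for a limma 3.58.1 alternative with a pseudocount of 1. DESeq2 1.42.0 was another alternative. Replicate numbers did not pair libraries (correlations of same-numbered deviations from -0.400 to -0.00844). On simulated counts for the 13367 rows, 65% of 2-fold and 93% of 4-fold changes were recovered, with 5.95% false calls. The simulated libraries were drawn independently, without a shared file-name code, a run label or a difference in acinar share. These rates therefore need not hold for the real libraries. Chi-square comparison of replicates found no pair of identical libraries.

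Named genes had 1 unrepeated name. The 12 largest rises and 12 largest falls were taken outside the acinar and Reg lists. They had adjusted p below 0.05, non-overlapping groups and a log2 CPM averaging above 1. Without a rule on overlap or level, up to 6 called genes of each of those lists and 6 genes called in both age fits were named. So were the called members of each list, and its first 4 members whether or not they passed. The genes and lists were chosen with earlier results of these data known. Alternatives were other scalings, filters, tools, covariates, blocks and each library left out; the rows with unrepeated names, limma-voom without block and the difference of the age effects were added after the data were seen. Coordinates are those of Gencode vM1 on mm9. Where a value is printed for a share or a low count, the limit covers counting error only. Some members of the rule and of the lists are not reported here.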

Additional observations from a re-analysis of the deposited data

Results flagged for a closer look

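Among 170 sets of 4 libraries (the 80 called genes named here and 5 library measures, each age apart), 7 held a library far from the other 3. A nominal rate of 1 in 20 sets would give 8.5, but it assumes unselected, independent sets with normal spread. These genes were called in the same data, so no conclusion is drawn from that comparison. Amy2a5 stood at 96600 CPM in young replicate 4, next to 36200 CPM in the nearest library, and at 10500 CPM in old replicate 1, next to 2720 CPM. Reg2 reached 56.6 CPM in young replicate 4 (nearest 7.41), Lyz2 20.8 CPM in the same library (nearest 11) and Kazald1 0.884 CPM there (nearest 2.18). Astn1 had 25.4 CPM in old replicate 2 (nearest 12.9), and Bmi1 83.9 CPM in young replicate 3 (nearest 73.2).

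For 12 named genes the age effect in unoperated islets differed from that in operated islets by the interaction test. The difference of the log2 fold changes, unoperated less operated, was -1.85 for Mdm1 (adjusted p = 1.37e-05), -1.65 for Fkbp5 (1.37e-05), -1.40 for Kit (0.0236), -1.20 for Sult1d1 (0.011), -1.11 for Usp51 (0.0108), -1.09 for Enpp2 (0.0121), -0.98 for Rab31 (1.9e-05), -0.90 for Nudt4 (0.0108), -0.73 for Tmtc3 (0.0178) and -0.66 for Nek7 (0.011). It was 0.98 for D4Wsu53e (0.0315) and 0.91 for Plch1 (0.0484). Ncoa7, a nuclear receptor coactivator, and Reg2 were called in both fits with opposite signs, yet their differences of -1.13 (adjusted p = 0.0513) and -6.36 (adjusted p = 0.278) did not pass.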

How the results depend on the processing

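The count of 234 rows in unoperated islets stayed within 1.5 times under the other scalings and filters tried and with limma-voom (200). It was 628 with DESeq2, 597 with all 24 libraries in the fit, 763 with the share of reads in genes as covariate and 1168 on log2(RPKM + 1), where 93.3% were higher. It was 138 with the run label as covariate, 21 with the file-name code as a random block (consensus correlation 0.428) and 0 with the acinar score as covariate, where 587 rows had an unadjusted p below 0.05. Leaving out 1 library gave 24 to 297 rows. Same-numbered libraries did not deviate together, so the numbers name libraries only; with the replicate number as a block 12 rows passed, all 12 of them among the 234, and of the gene lists only the leukocyte list kept a call (1); the acinar and Reg lists had 0. In operated islets the 8 day 2 libraries alone gave 1394 rows, of which 1125 were among the 2972. The cause of these changes was not tested. Of 1889 values of the 80 called genes named here under the alternatives, 1244 kept direction and call, 644 kept direction only and 1 reversed: Tff2 at 0.28 with the acinar score as covariate. Counts near the threshold and genes under about 1 CPM (3 counts are 0.320 to 0.511 CPM in these libraries) limit what 4 libraries an age can show.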

Other observations

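Several further groups of called genes were picked after their values were seen and are given as values. The 3 Ttc30 genes, which encode an intraflagellar transport subunit of cilia, lie side by side on chromosome 2 and fell together. Ttc30b (75773920 to 75776519, mm9) had 104, 69.3, 120 and 119 CPM in young and 51.2, 40.3, 37.1 and 31.5 CPM in old replicates 1 to 4, and its log2 fold change was -1.37 (SE 0.182, adjusted p = 0.0119, called in 7 of 8 fits). Ttc30a2 (-1.18, adjusted p = 0.0226) and Ttc30a1 (-0.97, adjusted p = 0.0244) followed, each called in 4 of 8 fits, and since the copies are alike in sequence their counts may not be fully separate. In operated islets the values were -0.63, -0.45 and -0.12.

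The glutathione transferase genes Gstm1 (log2 fold change 0.64, adjusted p = 0.0222), Gstm2 (0.81, adjusted p = 0.0464) and Gstt1 (0.59, adjusted p = 0.0216) were higher in old islets, with Gstm1 at 50.2, 60.3, 47.0 and 45.7 CPM in young and 76.0, 82.4, 76.6 and 80.4 CPM in old replicates 1 to 4. They were also higher in old operated islets (0.76, 0.62 and 0.88). Gstm1 was called in 4 of 8 leave-one-library-out fits, Gstt1 in 2 and Gstm2 in 1. Cntnap2, a neuronal adhesion protein, ran from 21.5 to 26.2 CPM in young and from 39.1 to 44.8 CPM in old libraries (0.81, SE 0.0954, adjusted p = 0.00787, called in 8 of 8 fits), Nrcam rose by 1.39 (adjusted p = 0.0119) and Nmnat2, an enzyme of NAD synthesis in axons, by 1.84 (adjusted p = 0.0153), called in 8 and 6 of 8 fits.

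Ctss, the protease that trims the class II invariant chain, rose by 0.61 (adjusted p = 0.0438), Relb, a subunit of the noncanonical NF-κB pathway, by 1.2 (adjusted p = 0.0394), Pparg by 0.88 (adjusted p = 0.0465), Pcsk6 by 0.70 (adjusted p = 0.0255) and the endothelial phosphatase gene Ptprb by 0.74 (adjusted p = 0.0295). These calls held in 3 of 8 fits for Pcsk6 and Ptprb, in 2 for Pparg, in 1 for Ctss and in 0 for Relb. Barhl1, a homeobox factor of neural development, was nearly silent in young islets, with 3 counts over 4 libraries, and had 86 counts over the old ones, a ratio of depth-scaled counts of 26.6 (95% exact interval 8.8 to 132, counting error only; adjusted p = 0.0265). Old replicates 1 to 4 held 2.46, 2.30, 3.58 and 1.18 CPM of it, and it was called in 3 of 8 fits.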
